A study of Homo sapiens with 8 samples.

Results

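The genes described here are 9 components of the junctions that hold epithelial cells together, CDH1, CLDN3, CLDN4, CLDN7, OCLN, EPCAM, DSP, JUP and DSG2. They were taken by name, as the probe sets annotated with exactly 1 symbol from this set, which gave 1 probe set per gene, and they are 9 of the 7713 genes so named among the 8746 probe sets that are not Affymetrix controls. Messenger RNA was measured in 2 human breast cancer cell lines grown in culture, on 8 Affymetrix arrays in 4 groups of 2. The groups were ZR75-1 cells (estrogen receptor positive) with an HSD17B14 plasmid, ZR75-1 cells with the insert-free vector (called mock-transfected in the labels), SKBR3 cells (estrogen receptor negative) with the HSD17B14 plasmid, and SKBR3 cells with the same vector. HSD17B14 is a 17-beta-hydroxysteroid dehydrogenase, an enzyme of steroid metabolism. The HSD17B14 plasmid was delivered with FuGene-6, a lipid reagent, the control cells were given an equal amount of the vector, and all 4 groups were collected 48 h later. The labels name neither a promoter nor a selection step, so the share of cells that took up the plasmid is not known here. Nothing says that the duplicates are independent cultures, and a p-value here can reflect technical spread alone.

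In an epithelial sheet, tight junctions seal the space between neighbouring cells, adherens junctions couple their actin cytoskeletons, and desmosomes couple their keratin filaments. E-cadherin (CDH1) is the adhesion receptor of the adherens junction, claudins and occludin (OCLN) are membrane proteins of the tight junction, and desmoglein (DSG2), plakoglobin (JUP) and desmoplakin (DSP) form a chain across the desmosome. EPCAM is a homophilic adhesion protein of simple epithelia and of carcinomas. SKBR3 cells are known to have lost E-cadherin through deletion of part of its gene, and ZR75-1 cells are known as an E-cadherin-positive luminal line.

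The repressors SNAI1, SNAI2, ZEB1 and ZEB2 are known to bind the E-box CACCTG in the CDH1 promoter, and in mouse epithelial cells SNAI1 is known to repress claudin and occludin genes. The promoter windows of the junction genes were therefore searched for CACCTG on both strands (CAGGTG is the same site read on the other strand). The windows run from 250 bases before to 50 bases after each annotated start in RefSeq (GRCh38.p14), and those of 7 of the 9 genes were used, all but CDH1 and EPCAM. The box was present in 7 of 10 windows and in 6 of the 7 genes, the exception being CLDN4, while 20.6% of 35116 windows and 24.1% of 27305 genes in the same RefSeq table hold it. The CLDN7 window at its downstream start holds 5 boxes, beginning at positions -174, -135, -20, -9 and 6 from the start, and 0.094% of windows hold 5 or more. The windows of CLDN7 (chr17:7262429-7262728, minus strand), CLDN3 (chr7:73770221-73770520, minus strand) and DSP (chr6:7541421-7541720, plus strand) are shown because CLDN7 and CLDN3 were higher in ZR75-1 and DSP was lower there, as described next. They are written 5′ to 3′ with the boxes in capitals, and a box is a match of letters, not a measured binding site.
CLDN7: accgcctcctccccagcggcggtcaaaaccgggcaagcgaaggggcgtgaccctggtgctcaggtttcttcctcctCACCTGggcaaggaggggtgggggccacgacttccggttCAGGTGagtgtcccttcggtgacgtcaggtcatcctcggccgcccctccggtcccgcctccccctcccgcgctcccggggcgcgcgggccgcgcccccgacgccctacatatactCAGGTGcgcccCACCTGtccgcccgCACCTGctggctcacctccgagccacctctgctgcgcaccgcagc
CLDN3: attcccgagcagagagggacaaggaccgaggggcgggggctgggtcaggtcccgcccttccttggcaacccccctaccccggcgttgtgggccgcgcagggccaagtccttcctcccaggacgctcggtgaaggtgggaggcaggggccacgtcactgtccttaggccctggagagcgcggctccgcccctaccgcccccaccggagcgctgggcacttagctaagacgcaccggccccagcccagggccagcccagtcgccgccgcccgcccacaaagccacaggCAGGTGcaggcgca
DSP: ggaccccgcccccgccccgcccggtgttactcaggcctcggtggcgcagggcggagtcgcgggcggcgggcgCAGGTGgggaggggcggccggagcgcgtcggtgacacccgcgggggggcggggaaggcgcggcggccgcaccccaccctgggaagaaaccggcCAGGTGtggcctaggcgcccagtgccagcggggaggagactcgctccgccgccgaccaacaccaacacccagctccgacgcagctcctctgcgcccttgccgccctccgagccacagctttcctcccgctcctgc

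The arrays carry signal intensities made with MAS5 by the submitters and scaled to the same trimmed mean. Signals under 17.6, the highest of the arrays' 40th percentiles, are called under the floor. Where all arrays on one side of a comparison lay there, a fold is given only as a lower bound. Where some did, the log2 difference is given in place of a fold. The HSD17B14 signal was 107.5 and 135.3 with the plasmid against 17.8 and 2.1 with the vector in ZR75-1, and 650.7 and 743.6 against 2.0 and 4.2 in SKBR3. ERBB2 is known to be amplified in SKBR3, yet its signal ran from 95.9 to 226 on the ZR75-1 arrays, against 25.9 to 46.8 on the SKBR3 arrays. Its amplicon neighbour GRB7 ran from 8.9 to 67.7, against 4.1 to 14.9. STARD3, the other listed SKBR3 marker on the array, overlapped between the lines, at 24.8 to 30.3 in ZR75-1 against 27.5 to 36.4. ESR1, the estrogen receptor, ran from 194.5 to 341.6 on the ZR75-1 arrays and from 14.9 to 24.6 on the SKBR3 arrays, as the receptor labels have it. Of the other listed ZR75-1 markers, GATA3 ran from 1220.8 to 1638.8 against 284 to 416.4. TFF1 ran from 1874.1 to 2767.7 against 962.4 to 1073.3, far above the floor in both lines. PGR lay under the floor on every array except ZR75-1 HSD17B14 array 1 (22.8). By ERBB2 and GRB7 the SKBR3 arrays go against their line label and are called SKBR3-labelled throughout. All 9 luminal epithelial markers on the array (KRT7, KRT8, KRT18, KRT19, MUC1, GATA3, FOXA1, XBP1 and AGR2) were above the floor in each ZR75-1 group, with a summed signal of 18025 to 23070.9, against 5227.5 to 6854.4 on the SKBR3-labelled arrays, where MUC1 lay under the floor in the vector controls. KRT18 made up the largest part of that sum on each array, and KRT7 lay the other way without overlap, at 72.9 to 152.3 against 180 to 195.3.

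The main difference in these genes lay between the lines. Averaged over both plasmids, with 4 arrays per line, 7 of the 9 genes were higher and 2 were lower in ZR75-1 than in the SKBR3-labelled cells (limma, Benjamini-Hochberg adjusted p under 0.05 over 6251 tested probe sets). Of all tested probe sets 23% were higher and 26.1% lower, 49.2% in either direction, so a call in this comparison is common. The median difference of the 9 genes was 2.23 on the log2 scale, against -0.04 over all tested probe sets. CDH1 and CLDN3 differed most, CLDN7, JUP and EPCAM followed, and CLDN4 and OCLN differed least among the 7. The 2 lower genes, DSP and DSG2, both belong to the desmosome. The signals of all 4 arrays of one line lay beyond all 4 of the other for 7 genes that were higher and 1 that was lower in ZR75-1, an arrangement that 19.8% and 22.7% of tested probe sets show.

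CDH1 had signals of 1292.9 and 1508.4 in ZR75-1 with HSD17B14 and 1173.3 and 1074.7 in ZR75-1 with the vector, against 58.1 and 54.8 in SKBR3-labelled cells with HSD17B14 and 26.8 and 45.7 with the vector. The lines did not overlap, and the lowest ZR75-1 signal was far above the highest SKBR3-labelled one. The averaged difference was 4.82 ± 0.16 on the log2 scale (28.2-fold, limma adjusted p = 9.73e-10, n = 4 arrays per line), which ranked 17 of 6251 by p-value. The SKBR3-labelled CDH1 signals stayed above the floor, between the 49.8 and 65.4 percentiles of their arrays, against the 97.2 to 98.1 percentiles on the ZR75-1 arrays. The file holds no detection calls, and the suffix of this probe set (_s_at) marks possible binding to more than 1 transcript, so whether the low signals are CDH1 transcript was not tested. In such bulk RNA, fewer cells with a transcript and less of it in each cell cannot be told apart.

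**Figure D1:**
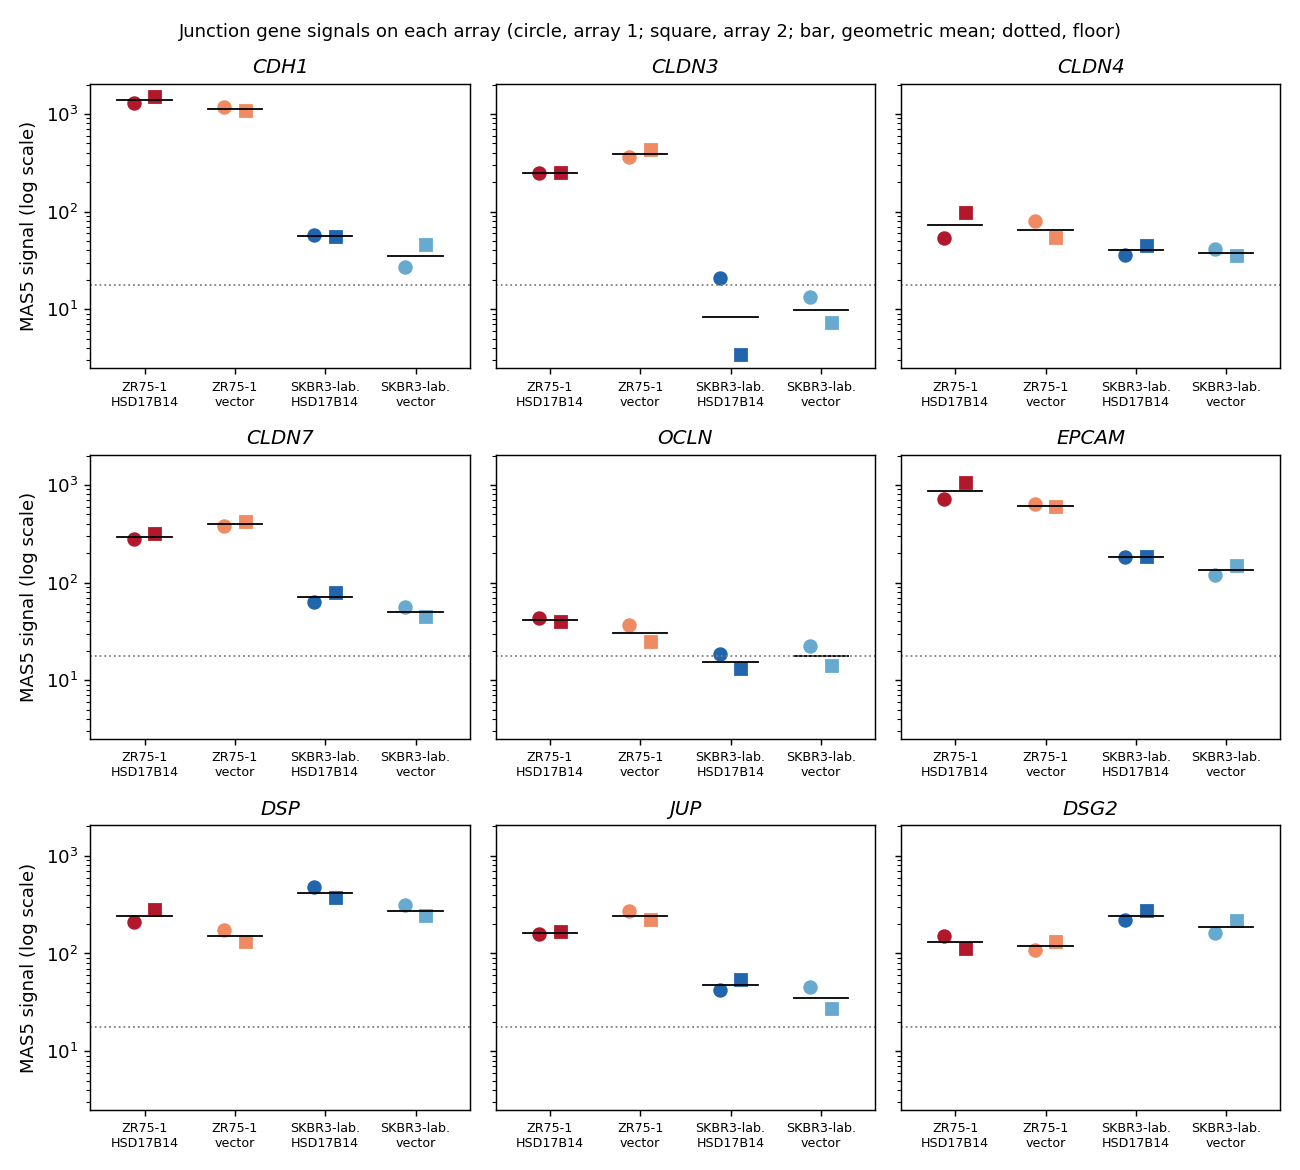
MAS5 signal (log axis) of the 9 junction genes on each of the 8 arrays, with a circle for array 1, a square for array 2, a bar for the geometric mean of the 2 arrays and a dotted line at the floor of 17.6. CDH1 lies between 1074.7 and 1508.4 in ZR75-1 and between 26.8 and 58.1 in the SKBR3-labelled cells, while DSP and DSG2 are the genes whose mean is lower in ZR75-1.

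Among the tight junction genes, CLDN3 had signals of 248.4 and 247 in ZR75-1 with HSD17B14 and 363.6 and 425 with the vector, against 20.8 and 3.4 in SKBR3-labelled cells with HSD17B14 and 13.5 and 7.3 with the vector. Only 1 of the 4 SKBR3-labelled arrays was above the floor. Between the vector controls CLDN3 was at least 22.3-fold higher in ZR75-1 (adjusted p = 5.1e-05), and the averaged difference was 5.09 ± 0.45 on the log2 scale (adjusted p = 2.34e-06), a size that depends on signals under the floor and was 3.01 with log2 of the signal plus 32.

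CLDN7 had signals of 277.3 and 312.9 in ZR75-1 with HSD17B14 and 383 and 419.8 with the vector, against 63.2 and 78.5 in SKBR3-labelled cells with HSD17B14 and 55.7 and 44 with the vector. It was 5.82-fold higher in ZR75-1 (2.54 ± 0.14 on the log2 scale, adjusted p = 5.03e-08), with no overlap between the lines and all signals above the floor.

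The remaining tight junction genes differed by little. CLDN4, which like CLDN3 is a known receptor of Clostridium perfringens enterotoxin, had signals of 54 and 96.7 in ZR75-1 with HSD17B14 and 80.2 and 53.3 with the vector, against 36.2 and 44.8 in SKBR3-labelled cells with HSD17B14 and 41.3 and 34.7 with the vector. OCLN had signals of 43.2 and 39.5 in ZR75-1 with HSD17B14 and 37 and 24.6 with the vector, against 18.5 and 13 in SKBR3-labelled cells with HSD17B14 and 22.6 and 13.9 with the vector. The lines did not overlap for either gene, and 2 of the 4 SKBR3-labelled OCLN signals lay under the floor.

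Averaged over plasmids, CLDN4 was 1.76-fold higher in ZR75-1 (0.82 ± 0.26 on the log2 scale, adjusted p = 0.0198) and OCLN was higher by 1.09 ± 0.36 on the log2 scale (adjusted p = 0.0247), a size that was 0.47 with log2 of the signal plus 32. Neither passed within a plasmid, with adjusted p = 0.0983 for CLDN4 and 0.0505 for OCLN with HSD17B14, and 0.106 and 0.259 with the vector. Both averaged calls were also lost with the ratio of 3' to 5' actin signal as a covariate, at adjusted p = 0.111 for CLDN4 and 0.199 for OCLN. The CLDN4 call was lost without ZR75-1 HSD17B14 array 2 (adjusted p = 0.0943), ZR75-1 vector array 1 (0.0691) or SKBR3-labelled HSD17B14 array 1 (0.0739). The OCLN call was lost without ZR75-1 HSD17B14 array 1 (0.0701) or 2 (0.0538), ZR75-1 vector array 1 (0.064), SKBR3-labelled HSD17B14 array 2 (0.0951) or SKBR3-labelled vector array 2 (0.059), and when the Bacillus spike-in level was blocked (0.0565).

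EPCAM had signals of 715.5 and 1056.3 in ZR75-1 with HSD17B14 and 639.6 and 591.5 with the vector, against 180.7 and 182 in SKBR3-labelled cells with HSD17B14 and 119.4 and 149 with the vector. Every array of both lines was above the floor and the lines did not overlap. EPCAM was 4.7-fold higher in ZR75-1 (2.23 ± 0.13 on the log2 scale, adjusted p = 1.1e-07), and the difference was much the same with HSD17B14 (2.26 ± 0.19) and with the vector (2.21 ± 0.19).

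The 3 desmosome genes went both ways. JUP, which also binds cadherins at the adherens junction, had signals of 158 and 166.8 in ZR75-1 with HSD17B14 and 271.9 and 218.9 with the vector, against 42.3 and 53.9 in SKBR3-labelled cells with HSD17B14 and 45.9 and 26.7 with the vector. It was 4.87-fold higher in ZR75-1 (2.28 ± 0.20 on the log2 scale, adjusted p = 1.86e-06), without overlap.

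DSP, the plakin that anchors keratin filaments, had signals of 208.6 and 276.4 in ZR75-1 with HSD17B14 and 175.1 and 130.2 with the vector, against 475.2 and 372.6 in SKBR3-labelled cells with HSD17B14 and 311.9 and 239.9 with the vector. The lines did not overlap within a plasmid, but ZR75-1 HSD17B14 array 2 lay above SKBR3-labelled vector array 2. DSP was 1.78-fold lower in ZR75-1 (-0.83 ± 0.15 on the log2 scale, adjusted p = 0.000727). On the arrays with low Bacillus spike-in signal the DSP difference was -1.19, and on those with high signal it was -0.11, the second from 1 ZR75-1 array against 2 SKBR3-labelled ones.

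DSG2, the desmosomal cadherin of simple epithelia, had signals of 152.2 and 110.8 in ZR75-1 with HSD17B14 and 107.6 and 130.7 with the vector, against 218.9 and 270.1 in SKBR3-labelled cells with HSD17B14 and 161.7 and 215.9 with the vector. The lines did not overlap, and DSG2 was 1.72-fold lower in ZR75-1 (-0.78 ± 0.16 on the log2 scale, adjusted p = 0.00142). Between the vector controls alone the DSG2 difference was -0.66 (adjusted p = 0.0343), called under only 10 of 18 alternatives. Its adjusted p reached 0.526 among them, and the losses included leaving out ZR75-1 vector array 1 or SKBR3-labelled vector array 2. Without single arrays this difference ran from -0.86 to -0.45. The DSP difference between the vector controls was called under 14 of 18, with an adjusted p up to 0.207. Its losses included leaving out ZR75-1 vector array 2 or SKBR3-labelled vector array 1. With HSD17B14 DSP was called under 14 and DSG2 under 15 of 18. The DSP losses there included leaving out array 1 of either line, and the DSG2 losses array 2 of either line.

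**Figure D2:**
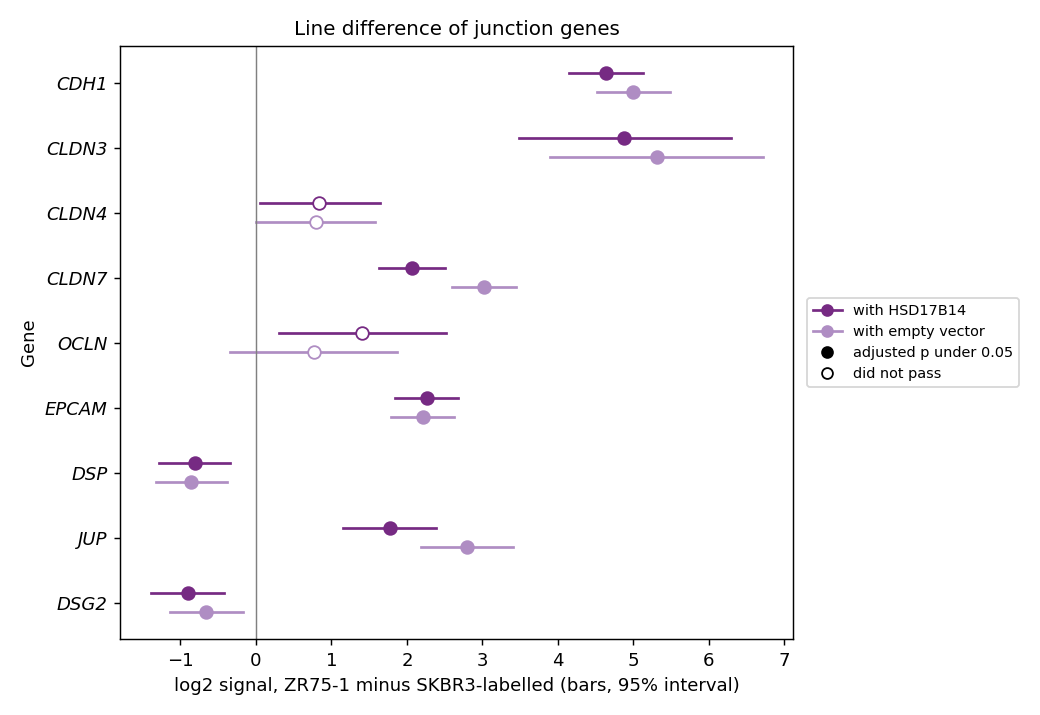
Log2 difference between ZR75-1 and SKBR3-labelled cells for the 9 genes, shown with HSD17B14 (dark) and with the empty vector (light), with 95% intervals from the limma fit and filled points where the adjusted p was under 0.05. CDH1 and CLDN3 lie near 5, CLDN4 and OCLN do not pass within a plasmid, and DSP and DSG2 lie below 0.

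Within each plasmid 5 genes were higher (CDH1, CLDN3, CLDN7, EPCAM and JUP) and 2 were lower (DSP and DSG2) in ZR75-1. The share of all tested probe sets called in either direction was 33.2% with HSD17B14 and 40.2% with the vector. With HSD17B14 15.1% were higher and 18.1% lower, and with the vector 19.6% were higher and 20.7% lower. Within either plasmid the 2 arrays of each line did not overlap for any of the 9 genes, with 7 higher and 2 lower in ZR75-1, but 33.5% and 37.3% of tested probe sets do the same with HSD17B14, and 32.8% and 33.4% with the vector.

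The summed signal of mesenchymal markers moved with this line difference, mainly through 1 gene. Of 13 listed genes 10 were on the array, and their summed signal was 78 to 79.4 in ZR75-1 with HSD17B14 and 97.8 to 105.8 with the vector, against 3724.1 to 3736.4 in SKBR3-labelled cells with HSD17B14 and 4708.5 to 5475.3 with the vector. Nearly all of the SKBR3-labelled sum was vimentin (VIM), an intermediate filament protein, at 0.4 to 25.7 in ZR75-1 against 3646.2 to 5325.8 in the SKBR3-labelled cells. CDH11, a cadherin, lay the same way as VIM without overlap, at 1.3 to 7.2 in ZR75-1 against 23.9 to 28.6. COL1A1, a fibrillar collagen chain, lay the other way without overlap, at 21.8 to 50.4 in ZR75-1 against 3.4 to 14.4. In 3 of the groups 8 of the 10 genes lay under the floor on both arrays, and in the SKBR3-labelled vector group 4 did. CDH2, COL3A1, LUM, PDGFRB and SPARC lay under it on every array apart from CDH2 and COL3A1 on SKBR3-labelled vector array 1 (21.1 and 20.6). Summed signals of the basal or myoepithelial markers were 35.8 to 67.8 in ZR75-1 against 70.2 to 91.9, of the endothelial markers 12.7 to 62.6 against 26.2 to 50.4, and of the leukocyte markers 77.8 to 114.4 against 66 to 96.2, with 5, 6 and 5 genes on the array. In each group 3 of the 5 basal or myoepithelial genes lay under the floor on both arrays. Among these 5, MYLK ran from 1.3 to 20.7 in ZR75-1 against 32.3 to 37.5, and ACTA2 overlapped, at 17.8 to 48 against 27 to 32.6. The part of mesenchymal expression in the junction gene differences was not tested.

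The wider junction lists, which exclude the 9 genes, held 79 tested genes, of which 29 were higher and 20 lower in ZR75-1 averaged over plasmids, where 23% and 26.1% of all tested probe sets were. Of 16 tight junction genes 5 were higher and 2 lower (median 0.17 on the log2 scale), of 16 adherens junction genes 2 were higher and 6 lower (median -0.28), and of 7 desmosome genes 2 were higher and 2 lower (median 0.51). Of 23 EPCAM partners and other epithelial surface genes 12 were higher and 6 lower (median 0.87), and of 17 regulators of the epithelial state 8 were higher and 4 lower (median 0.19). The median over all tested probe sets was -0.04.

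In the tight junction list, CLDN1 ran from 84.8 to 121.1 (median 118.2) on the ZR75-1 arrays against 1.7 to 11.3 (median 6.9) on the SKBR3-labelled ones, at least 6.22-fold higher (adjusted p = 1.02e-06). PARD6A, a cell polarity protein, was 3.93-fold higher in ZR75-1 (adjusted p = 3.08e-05) and LSR, the angulin of tricellular contacts, was higher by 2.13 ± 0.27 on the log2 scale (adjusted p = 4.14e-05). PALS1, a scaffold of the Crumbs polarity complex, was 3.25-fold lower in ZR75-1 (adjusted p = 9.19e-05). In the adherens junction list, CDH3, which encodes P-cadherin, ran from 37.3 to 86.7 in ZR75-1 against 0.7 to 1.6, at least 3-fold higher (adjusted p = 3.59e-05). The actin crosslinker ACTN1 was 3.67-fold lower (adjusted p = 1.34e-07), the catenin-like CTNNAL1 6.87-fold lower (adjusted p = 9.9e-07) and the actin-binding LIMA1 5.1-fold lower (adjusted p = 1.5e-06) in ZR75-1.

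In the desmosome list PPL, periplakin, was higher in ZR75-1 by 2.98 ± 0.25 on the log2 scale (adjusted p = 1.26e-06). The plakophilin genes PKP4, PKP2 and PKP3 gave calls near the threshold. PKP4 was 1.43-fold lower in ZR75-1 (adjusted p = 0.0286), a call that held under 11 of 18 alternatives. PKP2 was lower in ZR75-1 (-1.84 ± 0.55 on the log2 scale, adjusted p = 0.0158), with 3 of the 4 ZR75-1 signals under the floor and a size of -0.63 with log2 of the signal plus 32. The PKP2 call was lost without SKBR3-labelled HSD17B14 array 1 (adjusted p = 0.0779) or vector array 1 (0.0556). PKP3 was higher in ZR75-1 by 0.51 ± 0.19 (adjusted p = 0.0426), but the difference was -0.02 with HSD17B14 (adjusted p = 0.969) and 1.03 with the vector (adjusted p = 0.00866), and the averaged call held under 6 of 18 alternatives.

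Among surface genes, MUC1, a transmembrane mucin, ran from 413.3 to 1348.3 in ZR75-1 against 9.5 to 26.7 in SKBR3-labelled cells (higher by 5.43 ± 0.19 on the log2 scale, adjusted p = 1.22e-09). Both SKBR3-labelled vector signals of MUC1 lay under the floor. CD24 was 6.14-fold higher (adjusted p = 3.07e-08). CD44, the hyaluronan receptor, ran from 13.2 to 26.2 in ZR75-1 against 503.8 to 618.6 (-4.96 ± 0.19 on the log2 scale, adjusted p = 3.43e-09), and FHL2, an adaptor that binds the EPCAM intracellular domain, was 4.73-fold lower (adjusted p = 6.51e-08).

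Among regulators of the epithelial state, the transcription factor ELF3 was 9.35-fold higher in ZR75-1 (adjusted p = 2.1e-08), TFAP2A 9.11-fold (adjusted p = 3.77e-08), TFAP2C 4.06-fold (adjusted p = 1.55e-06) and GATA3 3.81-fold (adjusted p = 3.44e-07). Of the repressors introduced with the E-box, SNAI1, ZEB1 and ZEB2 were not among the tested genes. SNAI2, named after its value was seen, is a repressor of CDH1 that binds the E-box shown above. It had signals of 17.3 and 6 in ZR75-1 with HSD17B14 and 15.3 and 19.5 with the vector, against 130.8 and 125.1 in SKBR3-labelled cells with HSD17B14 and 65.5 and 119.8 with the vector (-3.00 ± 0.36 on the log2 scale, adjusted p = 2.69e-05). All 4 SKBR3-labelled signals were above all 4 of ZR75-1, of which 3 lay under the floor. Also named after its value was seen, TWIST1, a transcription factor known for repressing the epithelial state, went the other way. Its signals were 22.5 and 14.1 in ZR75-1 with HSD17B14 and 19.2 and 28.2 with the vector, against 0.3 and 3.6 in SKBR3-labelled cells with HSD17B14 and 3.5 and 2.9 with the vector. It was at least 1.16-fold higher in ZR75-1 (adjusted p = 0.00506), with all signals near or under the floor.

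**Figure D3:**
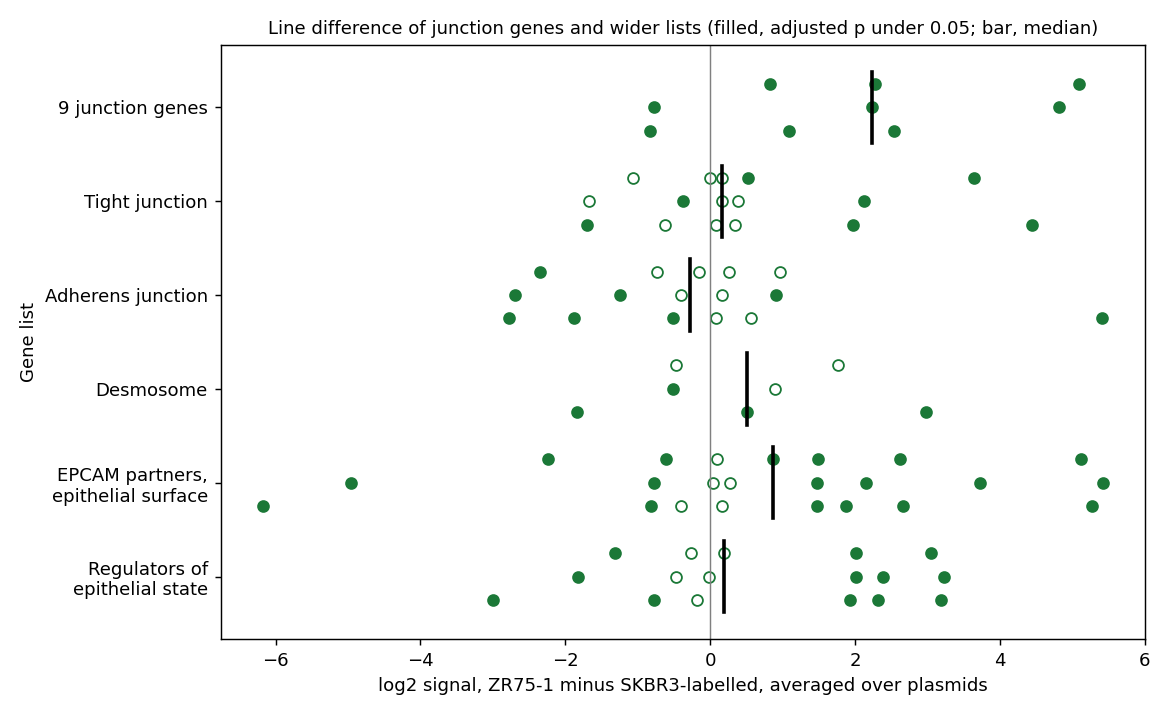
Log2 difference between ZR75-1 and SKBR3-labelled cells, averaged over plasmids, for the 9 junction genes and for each tested gene of the 5 wider lists, with filled points where the adjusted p was under 0.05 and a bar at each list's median. The medians are 2.23 for the 9 genes and 0.17, -0.28, 0.51, 0.87 and 0.19 for the lists from top to bottom.

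The genes whose signals most resembled those of CLDN3, the gene with the largest averaged line difference, were ALDH3B2 (Pearson's r = 0.992), RYR1 (0.992) and LPCAT3 (0.989), out of 5623 probe sets. This likeness is over 8 arrays that fall into 2 lines, so it describes mainly a shared gap between the lines. ALDH3B2, an aldehyde dehydrogenase, had signals of 439 and 511.7 in ZR75-1 with HSD17B14 and 676.6 and 703.6 with the vector, against 24.8 and 7.9 in SKBR3-labelled cells with HSD17B14 and 15.1 and 12.1 with the vector.

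The second question was whether the HSD17B14 plasmid changed the junction genes. None of the 9 passed in ZR75-1, in the SKBR3-labelled cells or averaged over both, where limma called 1.52%, 0.992% and 1.5% of all tested probe sets. At an unadjusted limma p under 0.05 the counts were 2 with a positive and 1 with a negative change in ZR75-1, 4 and 0 in SKBR3-labelled cells, and 3 and 0 averaged. Of all tested probe sets 8.35% and 9.61% were past that threshold in ZR75-1, 4.96% and 3.82% in SKBR3-labelled cells, and 6.83% and 7.33% averaged. The median change of the 9 genes was 0.14 in ZR75-1 and 0.44 in SKBR3-labelled cells on the log2 scale, against -0.04 and -0.01 over all tested probe sets. The changes and their intervals follow, since a p above the threshold does not show that a gene stayed the same.

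DSP came closest to a call. Its signals of 208.6 and 276.4 with HSD17B14 lay above those of 175.1 and 130.2 with the vector in ZR75-1, and 475.2 and 372.6 lay above 311.9 and 239.9 in the SKBR3-labelled cells. The log2 change was 0.67 ± 0.22 in ZR75-1 (95% interval 0.20 to 1.14, adjusted p = 0.128) and 0.62 ± 0.22 in SKBR3-labelled cells (0.15 to 1.09, adjusted p = 0.399). Averaged over lines it was 0.65 ± 0.15 (1.56-fold, 0.31 to 0.98, adjusted p = 0.0702, n = 4 arrays per arm). The averaged change passed under only 2 of 18 alternatives, with the replicate number as a block (adjusted p = 0.0221) and with log2 of the signal plus 32 (adjusted p = 0.023).

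CDH1 and EPCAM showed the same arrangement, with both HSD17B14 arrays above both vector arrays in each line. The CDH1 change was 0.31 ± 0.22 in ZR75-1 (adjusted p = 0.495) and 0.69 ± 0.22 in SKBR3-labelled cells (95% interval 0.20 to 1.18, adjusted p = 0.328), where the signals with the plasmid were 58.1 and 54.8 against 26.8 and 45.7. Without SKBR3-labelled vector array 2 the CDH1 change there was 1.07 and passed (adjusted p = 0.0116), and the averaged change, 0.50 ± 0.16 with all arrays (adjusted p = 0.169), was then 0.69 (adjusted p = 0.0111). Without vector array 1 the SKBR3-labelled change was 0.30 (adjusted p = 0.885) and the averaged one 0.31 (adjusted p = 0.34), and CDH1 passed under no other alternative run for either contrast. Within arrays of like spike-in signal the SKBR3-labelled CDH1 change was 1.12 on the low and 0.26 on the high arrays, each 1 array against 1. The EPCAM change was 0.50 ± 0.19 in ZR75-1 (0.08 to 0.92, adjusted p = 0.194), 0.44 ± 0.19 in SKBR3-labelled cells (0.02 to 0.86, adjusted p = 0.532) and 0.47 ± 0.13 averaged (adjusted p = 0.133). The 3 genes DSP, CDH1 and EPCAM were those with no overlap and a positive change in both lines, a pattern that 4.82% of tested probe sets show.

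CLDN7 and JUP, and with wider intervals OCLN, had changes of opposite sign in the 2 lines. For CLDN7 both HSD17B14 signals (277.3 and 312.9) lay below both vector signals (383 and 419.8) in ZR75-1, and both (63.2 and 78.5) lay above (55.7 and 44) in the SKBR3-labelled cells. The log2 changes were -0.44 ± 0.20 (95% interval -0.88 to -0.01, adjusted p = 0.264) and 0.51 ± 0.20 (0.08 to 0.94, adjusted p = 0.479), and 4.99% of tested probe sets show this arrangement. The JUP changes were -0.59 ± 0.28 in ZR75-1 (-1.20 to 0.02, adjusted p = 0.295), without overlap, and 0.45 ± 0.28 in SKBR3-labelled cells (-0.16 to 1.06, adjusted p = 0.748), where the arrays overlapped. The difference of the plasmid's effect between the lines, ZR75-1 minus SKBR3-labelled, was -0.95 ± 0.28 for CLDN7 (unadjusted p = 0.0055, adjusted p = 0.184 by limma) and -1.04 ± 0.39 for JUP (unadjusted p = 0.023, adjusted p = 0.308 by limma). None of the 9 genes passed this test of the difference, in which limma called 0.624% of probe sets (0.064% with a positive and 0.56% with a negative difference), and these 2 were the members with an unadjusted p under 0.05, where 5.78% of probe sets had a positive and 7.26% a negative difference past it.

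**Figure D4:**
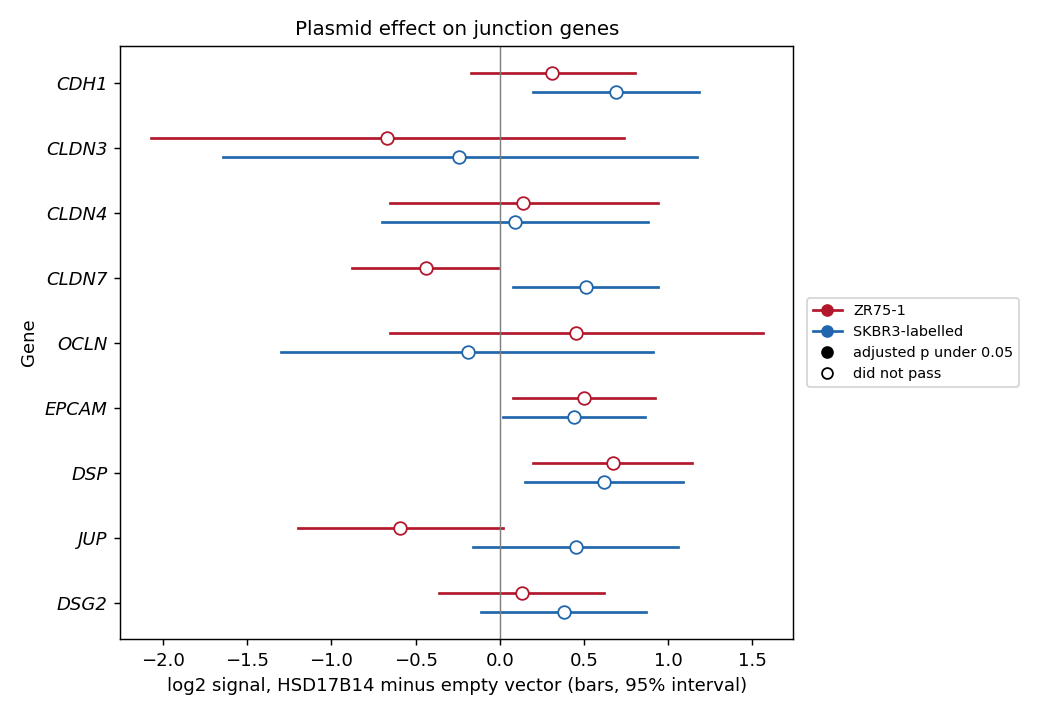
Log2 change with the HSD17B14 plasmid relative to the empty vector for the 9 genes, in ZR75-1 (red) and in SKBR3-labelled cells (blue), with 95% intervals from the limma fit. All points are open because none passed an adjusted p under 0.05, and CLDN7, JUP and OCLN lie on opposite sides of 0 in the 2 lines.

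For the other 4 genes the interval held 0 in both lines. The log2 change of CLDN3 was -0.67 ± 0.64 in ZR75-1 (-2.07 to 0.74, adjusted p = 0.641), although its signals of 248.4 and 247 did not overlap those of 363.6 and 425. With ZR75-1 fitted alone the same CLDN3 change passed (adjusted p = 0.0457), in a fit that leaves out the spread between the SKBR3-labelled arrays, of which 3 lie under the floor. It was -0.08 with the spike-in level blocked (adjusted p = 0.968) and 0.42 with the actin ratio as a covariate (adjusted p = 0.893). The log2 change of CLDN4 was 0.14 ± 0.36 in ZR75-1 and 0.09 ± 0.36 in SKBR3-labelled cells, that of OCLN 0.45 ± 0.51 and -0.19 ± 0.51, and that of DSG2 0.13 ± 0.22 and 0.38 ± 0.22, with adjusted p from 0.701 to 0.991. In ZR75-1, 4 genes lay above without overlap (CDH1, DSP, EPCAM and OCLN) and 3 below (CLDN3, CLDN7 and JUP), where 20.7% and 26.3% of tested probe sets do. In the SKBR3-labelled cells 5 lay above (CDH1, CLDN7, DSG2, DSP and EPCAM) and 0 below, where 19.5% and 20.6% do.

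Of the 79 tested genes on the wider lists, 2 fell with the plasmid in ZR75-1 and 0 rose (0.784% and 0.736% of all tested probe sets fell and rose). ACTN4, an actin crosslinker that binds at adherens junctions, had signals of 172.7 and 141.7 with HSD17B14 against 451.9 and 414.2 with the vector (-1.47 ± 0.22 on the log2 scale, adjusted p = 0.0129). MUC1 had signals of 567.1 and 413.3 against 1348.3 and 1034.3 (-1.29 ± 0.26, adjusted p = 0.0379). The MUC1 call held under 6 of 19 alternatives, and its limma adjusted p reached 0.378 among them. Losses included quantile normalization (adjusted p = 0.0906) and median centring (0.138). The call was also lost without any 1 of the ZR75-1 arrays or of the SKBR3-labelled HSD17B14 arrays. Without single arrays the MUC1 change ran from -1.51 to -1.06. The ACTN4 call held under 13 of 19, and its adjusted p reached 0.17. Losses there included leaving out either ZR75-1 HSD17B14 array or ZR75-1 vector array 1. Without single arrays the ACTN4 change ran from -1.61 to -1.32. In the SKBR3-labelled cells 0 of the 79 passed by limma, where 0.944% and 0.048% of all tested probe sets rose and fell.

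Averaged over the lines 2 of the 79 rose and 0 fell, where 1.22% and 0.288% of all tested probe sets did. CTNNB1, the catenin that ties E-cadherin to the actin cytoskeleton and acts in Wnt signalling, rose by 0.73 ± 0.16 on the log2 scale (adjusted p = 0.0477). Its signals were 101.4 and 140.3 with HSD17B14 against 62.2 and 72.8 with the vector in ZR75-1, and 177.4 and 144.2 against 104.7 and 100.7 in the SKBR3-labelled cells. CD24, a mucin-like surface glycoprotein, rose by 0.65 ± 0.14 (adjusted p = 0.0374), with signals of 457.3 and 598.3 against 334.9 and 329.2 in ZR75-1 and 83.3 and 87 against 48 and 61 in the SKBR3-labelled cells. Both genes had no overlap in either line, and both lie near the threshold, with CTNNB1 called under 4 and CD24 under 5 of 18 alternatives.

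Measures of the arrays themselves moved with these comparisons. The ratio of 3' to 5' actin signal, a measure of RNA integrity, was 2.83 and 2.66 in ZR75-1 with HSD17B14 and 2.03 and 2.02 with the vector. In SKBR3-labelled cells it was 2.28 and 3.09 with HSD17B14 and 3.6 and 3 with the vector. The same ratio for GAPDH lay the other way in ZR75-1, at 0.896 and 0.883 with HSD17B14 against 1.084 and 1.039 with the vector. In SKBR3-labelled cells the GAPDH ratio was 0.812 and 0.886 against 0.912 and 0.868, and it was not used as a covariate. With the actin ratio as a covariate the line difference averaged over plasmids was 4.49 for CDH1 (adjusted p = 2.9e-07), and 6 of the 9 genes passed. CLDN4 (adjusted p = 0.111), OCLN (0.199) and DSG2 (0.052) did not. The Bacillus spike-in signal was high on ZR75-1 HSD17B14 array 2, SKBR3-labelled HSD17B14 array 2 and SKBR3-labelled vector array 2, and within the low and the high arrays the CDH1 line difference was 4.90 and 4.91.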

How the data were processed

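Biotin-labelled cRNA from total RNA was hybridised to 8 Affymetrix arrays. The deposited values are linear signal intensities from MAS5, a tool that the submitters' processing notes name, with every array at a 2% trimmed mean of 100.1. No detection calls are given. Of 8793 probe sets 47 controls were left out, and 7840 of the other 8746 carry 1 symbol in the platform annotation.

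Signals under 1 were raised to 1 and log2 was taken. Testing required a signal over the array's 40th percentile (12.1 to 17.6) on 2 or more arrays, which 6251 probe sets and all 9 junction genes met. Group means and 7 contrasts came from limma 3.58.1 (R 4.3.3), whose prior variance followed the mean signal (4 residual degrees of freedom and 7.39 from the prior). Benjamini-Hochberg adjusted p-values under 0.05 were called. A value after ± is the standard error of the fit, from 2 arrays a group. The model was tested on simulated data.

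The 9 genes and the lists were chosen with earlier results of these data known. From each list, genes called in a contrast were named, at most 4 by moderated t, through the probe set with the highest mean. The alternatives tried were a filter at the 60th percentile or none, quantile normalization or centring on the median, adding 32 before log2 or raising values to the floor, a constant prior, a replicate block, separate fits per line, and leaving out each array. The spike-in block and the actin ratio as a covariate were chosen after seeing the data. Arrays of equal number did not deviate together (correlation -0.04 in each line). The number of arrays limits precision. Plots used Python 3.11.15 and matplotlib 3.10.9.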

Additional observations from a re-analysis of the deposited data

Results flagged for a closer look

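The plasmid's effect differed between the lines, as ZR75-1 minus SKBR3-labelled on the log2 scale, for MUC1 by -2.38 ± 0.37 (limma adjusted p = 0.0176) and for ACTN4 by -1.67 ± 0.31 (adjusted p = 0.0413). The MUC1 signals were 567.1 and 413.3 with HSD17B14 against 1348.3 and 1034.3 with the vector in ZR75-1, and 26.7 and 24.4 against 9.5 and 15.1 in the SKBR3-labelled cells, so its size depends on vector signals under the floor of 17.6. Both calls passed under part of the 18 alternatives, 9 for MUC1 and 6 for ACTN4, and the limma adjusted p reached 0.952 and 0.513 among them. The HSD17B14 signal with the plasmid also differed between the lines, at 107.5 and 135.3 in ZR75-1 against 650.7 and 743.6. Its part in these differences of effect was not tested.

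CLDN7, PKP3 and TFAP2A were below the vector arrays on both HSD17B14 arrays in ZR75-1 and above them on both in the SKBR3-labelled cells. The difference of effects was -0.95 ± 0.28 for CLDN7 (adjusted p = 0.184), -1.05 ± 0.38 for PKP3 (adjusted p = 0.281) and -0.85 ± 0.34 for TFAP2A (adjusted p = 0.322), none of which passed. Of all tested probe sets 4.99% show this arrangement.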

How the results depend on the processing

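Of 1152 recomputed values of the 9 genes, 0 reversed a called direction, 32 lost a call and 16 gained one, and 50 values that had not passed turned sign, all with a main size of at most 0.67. The averaged line difference of CDH1, CLDN3, CLDN7, EPCAM, JUP and DSP was called under all 18 alternatives run, from 4.05 to 5.01 for CDH1, while CLDN4 was called under 14, OCLN under 11 and DSG2 under 17. The count of genes called between the vector controls, 7, was 4 with the actin ratio as a covariate, where the CLDN3 difference was 3.40 (adjusted p = 0.0901). The plasmid counts of 0 became 1 in ZR75-1 fitted alone (CLDN3), 1 averaged over lines with log2 of the signal plus 32 and with the replicate block (DSP), and ran from 0 to 1 without single arrays in SKBR3-labelled cells and averaged (CDH1). The replicate block changed no other member count by more than 1.5 times. Leave-one-out counts ran from 6 to 7 between vector controls, from 6 to 8 with HSD17B14 and from 7 to 9 averaged. All called probe sets ran from 1 to 262 in ZR75-1 (95), 9 to 125 in SKBR3-labelled cells (62), 12 to 221 averaged (94), 0 to 67 for the difference of effects (39), 727 to 2775 between vector controls (2516), 1357 to 2284 with HSD17B14 (2074) and 1857 to 3274 for the averaged line difference (3073). On the wider lists these counts ran from 0 to 3 in ZR75-1 (2), 0 to 2 in SKBR3-labelled cells (0), 0 to 4 averaged (2), 0 to 2 for the difference (2), 25 to 46 between vector controls (45), 29 to 44 with HSD17B14 (43) and 39 to 52 averaged over plasmids (49). The causes were not tested. Signals near the floor limit CLDN3 and OCLN in the SKBR3-labelled cells.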
